A study of Homo sapiens with 8 samples.

Results

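The effect of COH29 was followed across all genes in HCC1937, a breast carcinoma cell line whose own BRCA1 gene is truncated and which the sample labels call BRCA1 deficient. The comparison sets 2 arrays of HCC1937 given 10 µM COH29 for 24 h against 2 arrays of HCC1937 without it, which is 4 of the 8 arrays of the series. The other 4 arrays hold a derivative that carries exogenous wild-type BRCA1 (HCC1937BRCA1 in the sample titles), 2 with the same exposure to COH29 and 2 without. All groups grew in the same serum-containing RPMI medium. No hours and no vehicle are recorded here for the arrays without COH29, so drug, vehicle and time in culture cannot be told apart. The labels do not say how exogenous BRCA1 was introduced or whether that line is 1 clone. Whether paired arrays are separate cultures is likewise not recorded here, so the spread behind every p-value is that between these arrays and may be technical. Values are log2 intensities, and 18417 genes were tested, each with 1 probe set. The arrays of a group correlated with r of 0.996 to 0.997 across genes, and the median standard error (SE) of a log2 change in HCC1937 was 0.103.

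COH29 blocks ribonucleotide reductase, which turns ribonucleotides into the deoxynucleotides needed for DNA replication and repair. The enzyme joins a catalytic large subunit, RRM1, with a small subunit, either RRM2, which is made in dividing cells, or RRM2B, a p53 target. Loss of deoxynucleotides stalls replication forks, and cells without working BRCA1 are known to handle such forks and DNA breaks poorly. Cells under such stress commonly slow the cell cycle, and stress-responsive transcription factors such as ATF4 can raise genes for amino acid supply.

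Promoters of genes that changed at least 2-fold with COH29 are shown first, because the share with 1 short motif was higher among the genes that fell than among all genes; no test of these shares was run. The cell cycle homology region, written TTTGAA, is the element through which late cell cycle genes are known to be repressed outside their phase. It was searched on both strands of the 250 bases before the gene start (RefSeq, GRCh38.p14), which the promoter table held for 14238 of the genes tested. It was present in 10.6% of all 14238, in 30 of the 140 genes that fell at least 2-fold (21.4%) and in 12 of the 145 that rose at least 2-fold (8.28%). Among all 1924 genes called lower with a promoter held, the share was 12.9%, much nearer that of all genes. Among all 1513 called higher it was 7.73%. Of the 25 genes with the largest falls, 17 had their promoters searched singly and 7 of these held a match. The rest had no promoter in the table or lay on a chromosome that this count left out, though the shares above include it. PLK1, a mitotic kinase, METTL4, an adenine methyltransferase, and RBBP6, a ubiquitin ligase of the 3′-end processing machinery, are shown with the match in capitals.
PLK1: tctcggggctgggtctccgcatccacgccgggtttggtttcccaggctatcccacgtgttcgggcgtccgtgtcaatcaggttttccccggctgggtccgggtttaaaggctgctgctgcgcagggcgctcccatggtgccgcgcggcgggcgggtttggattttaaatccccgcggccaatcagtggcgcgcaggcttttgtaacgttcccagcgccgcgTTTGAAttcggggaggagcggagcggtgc
METTL4: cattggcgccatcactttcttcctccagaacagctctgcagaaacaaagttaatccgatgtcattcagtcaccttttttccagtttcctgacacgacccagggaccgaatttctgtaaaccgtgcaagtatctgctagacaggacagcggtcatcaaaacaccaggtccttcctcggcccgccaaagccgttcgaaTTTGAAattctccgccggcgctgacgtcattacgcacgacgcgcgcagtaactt
RBBP6: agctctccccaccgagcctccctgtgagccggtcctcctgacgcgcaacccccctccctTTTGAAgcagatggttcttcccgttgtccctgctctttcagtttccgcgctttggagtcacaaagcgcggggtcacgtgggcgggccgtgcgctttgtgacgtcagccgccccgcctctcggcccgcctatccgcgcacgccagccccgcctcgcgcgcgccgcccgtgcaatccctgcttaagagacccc
The PLK1 stretch lies at chr16:23678639-23678888 on the plus strand, with the match starting at position -29 from the gene start. The METTL4 stretch lies at chr18:2571506-2571755 on the minus strand, with the match at -54, and that of RBBP6 at chr16:24539316-24539565 on the plus strand, with the match at -191. A match describes the letters only and says nothing of binding.

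Among the genes that rose, the composite element read by ATF4 with a C/EBP partner, written TGATGNAA, was present in 4.14% of the 145 that rose at least 2-fold, 0.714% of the 140 that fell and 2.19% of all. Its share among all 1513 genes called higher with a promoter held was 2.18%. It was found in 2 of the 19 promoters searched for the 25 largest rises, with the same chromosome left out. These belong to CHAC1, a glutathione-degrading enzyme, and ASNS, asparagine synthetase, both known ATF4 targets. In CHAC1 the letters lie on the opposite strand.
CHAC1: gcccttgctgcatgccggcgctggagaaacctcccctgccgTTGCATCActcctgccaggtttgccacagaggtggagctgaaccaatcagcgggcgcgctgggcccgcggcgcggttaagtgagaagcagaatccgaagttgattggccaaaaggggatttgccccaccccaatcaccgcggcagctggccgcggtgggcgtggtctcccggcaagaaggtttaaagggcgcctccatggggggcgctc
ASNS: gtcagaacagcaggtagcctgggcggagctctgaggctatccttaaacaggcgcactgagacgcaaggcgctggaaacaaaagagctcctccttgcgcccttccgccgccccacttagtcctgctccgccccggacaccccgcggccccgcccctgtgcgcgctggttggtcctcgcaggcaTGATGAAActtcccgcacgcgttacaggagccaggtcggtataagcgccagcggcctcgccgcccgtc
The CHAC1 stretch lies at chr15:40953221-40953470 on the plus strand, with the match at -209, and the ASNS stretch at chr7:97872409-97872658 on the minus strand, with the match at -68. The cyclic AMP response element, TGACGTCA, was present in 7.59% of the genes that rose at least 2-fold, 3.57% of those that fell and 2.37% of all. The GC box, GGGCGG, was present in 77.2% of those that rose, 50.7% of those that fell and 57.5% of all, and the CCAAT box in 50.3%, 40.7% and 34.4%. For the TATA box, TATAAA, these shares were 14.5%, 10% and 8.6%. The core of the hypoxia response element, ACGTG, was almost equally common in all 3 sets, at 22.8%, 21.4% and 21.1%, and so did not set the genes that rose apart. Neither TGACGTCA nor ACGTG holds the other on either strand. The median GC content of the 250 bases was 66.8% in the genes that rose, 60% in those that fell and 62.8% in all, and its part in these shares was not tested. Over all 1513 genes called higher with a promoter held, the GC box share was 71%, the CCAAT box 42.8% and the TATA box 8.06%. Over all 1924 called lower they were 62.6%, 31.4% and 6.19%. For falls, all 3 boxes thus lay on the other side of the share of all genes than in the 2-fold set. For rises, the TATA box alone of these did.

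**Figure D1:**
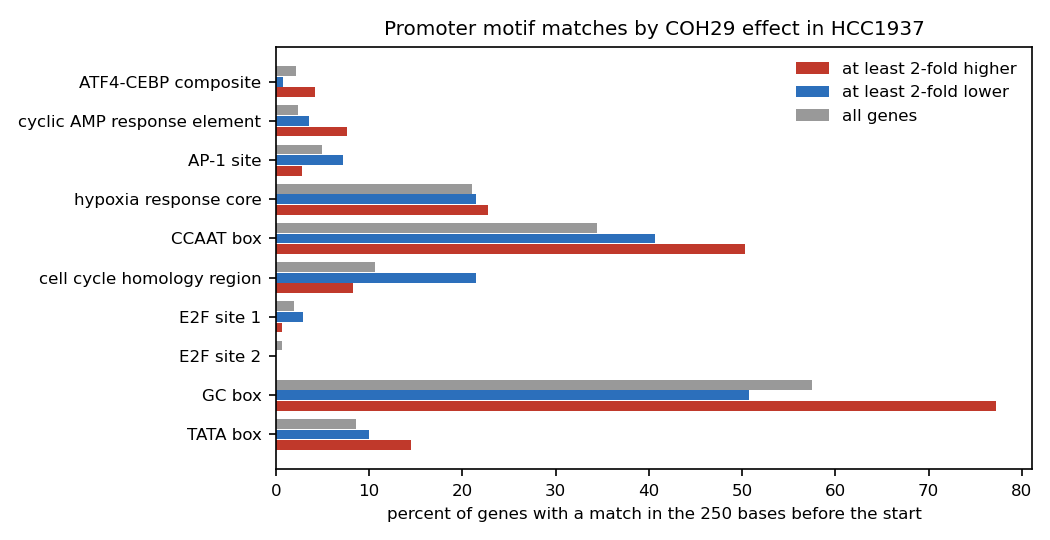
Horizontal bars give the percent of genes with at least 1 match on either strand in the 250 bases before the start, for genes at least 2-fold higher (red, 145 genes), at least 2-fold lower (blue, 140 genes) and all 14238 genes with a promoter (grey). The cell cycle homology region stands at 21.4% of the genes that fell against 10.6% of all, and the GC box at 77.2% of the genes that rose against 57.5%.

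COH29 changed HCC1937 broadly and mostly by small amounts. At an adjusted p under 0.05 (limma, Benjamini-Hochberg over 18417 genes), 1872 genes were called higher, 10.2% of those tested, and 2307 lower, 12.5%. The median size of a call was 0.48 on the log2 scale among those higher and -0.50 among those lower. At least 2-fold changes were rarer, with 172 genes higher (0.934%) and 179 lower (0.972%), and changes of at least 4-fold counted 13 higher and 4 lower. No called gene had COH29 and control arrays that overlapped. Fewer genes were called in both directions whichever HCC1937 array was left out. Such fits, also used below, leave 1 array in that group and fewer residual degrees of freedom. Fewer calls there need not mean dependence on that array. In RNA from a whole culture, fewer cells of a type and less RNA per cell cannot be told apart.

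The share of calls differed with the level of the gene. In the lowest of 4 equal bins of genes by mean level (up to 6.27), 4.52% were called higher and 2.26% lower, with a median change of 0.09. In bin 3 (up to 9.53), 13.8% were called higher and 21.5% lower, with a median change of -0.04. Large rises lay at high levels. Of the genes at least 2-fold higher, 73 were in the top bin, 68 in bin 3 and 8 in the lowest. Large falls lay in the middle, with 80 in bin 3, 60 in bin 2 and 25 in the top one. The COH29 arrays enter the mean level, so a rise lifts a gene's own level and a fall lowers it. This contrast is therefore partly built in. Olfactory receptors, which a breast line should not use, had a median level of 4.98, and 19 of 341 were called higher and 0 lower at a median change of 0.13. That median was 0.16 with arrays shifted to one median and 0.04 after cyclic loess. The first moves all genes of an array by 1 amount, and the second removes trends with level. The cause of the small upward shift at low levels was therefore not tested. Over all alternatives the median lay between 0.04 and 0.21. The 19 rises numbered 6 without COH29 array 1 or control array 1 and 5 without control array 2.

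**Figure D2:**
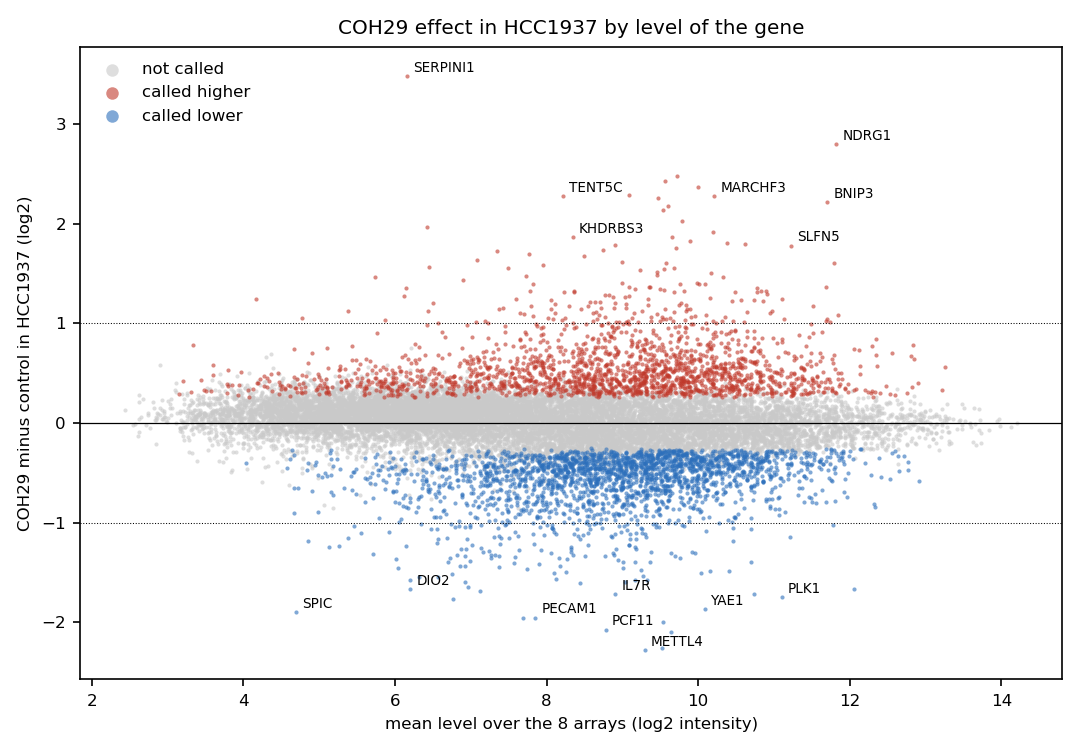
Each point is 1 of 18417 genes, placed by its mean log2 intensity over the 8 arrays (horizontal) and its COH29 minus control difference in HCC1937 on the log2 scale (vertical), with genes called higher in red, lower in blue and not called in grey; dotted lines mark 2-fold. SERPINI1 rose most, by 3.48, and METTL4 fell most, by -2.28, and calls are sparse at the lowest levels.

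Of the subunits of the drug's target enzyme, RRM2B rose clearly, RRM2 marginally, and RRM1 did not pass the test. RRM1 read 11.29 and 11.23 on the control arrays and 11.07 and 11.13 with COH29, a change of -0.16 ± 0.09 (SE, 2 arrays per group; limma adjusted p = 0.252). RRM2 read 10.77 and 10.85 without drug and 11.09 and 11.15 with it, a change of 0.31 at a limma adjusted p of 0.0417, and its call was lost under 9 alternatives, among them leaving out any 1 of the 4 HCC1937 arrays, where the adjusted p reached up to 0.192. RRM2B rose from 9.77 and 9.72 to 10.54 and 10.59, by 0.82 ± 0.08 (limma adjusted p = 0.00021). BRCA1 transcript in this line read 10.45 and 10.64 without and 10.40 and 10.46 with COH29, groups that overlap. CDKN1A, the cell cycle inhibitor p21, rose by 1.41 ± 0.13.

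Below SERPINI1, NDRG1 and DDIT3, which lead the ranking, the largest rises were in genes of varied roles. TENT5C, a poly(A) polymerase that stabilises messenger RNAs, read 6.55 and 6.65 without COH29 and 8.73 and 9.02 with it, a rise of 2.28 ± 0.11 (limma adjusted p = 9.64e-06). MARCHF3, a membrane-bound ubiquitin ligase, rose from 8.72 and 8.49 to 10.82 and 10.94, by 2.27 ± 0.14. KLHL24, a substrate receptor of cullin-3 ubiquitin ligases, rose 4.51-fold, from 8.34 and 8.41 to 10.55 on both COH29 arrays. In all 3 genes even the lower COH29 array lay more than 2 log2 units above the higher control array. RNF122, another ubiquitin ligase, rose by 1.73 ± 0.12 from a lower level of 6.53 and 6.41.

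SLFN5, a member of the Schlafen family, was already strongly detected and rose from 10.21 and 10.14 to 11.96 and 11.95, with arrays of a group nearly equal. WDR47, a microtubule-associated protein, rose by 1.76 ± 0.10, and KHDRBS3, an RNA-binding regulator of splicing, by 1.86 ± 0.16, with control arrays as far apart as 7.52 and 7.08. ERO1B, an oxidase that makes disulfide bonds in the endoplasmic reticulum, rose from 6.60 and 6.75 to 8.56 and 8.73. KDM3A, a histone demethylase, rose by 2.02 ± 0.08, and H2BC21, a histone H2B gene, by 1.91 ± 0.14. HBEGF, a ligand of the EGF receptor, rose by 1.80 ± 0.17, AHNAK2, a large scaffold protein, by 1.86 ± 0.08, and STARD5, a lipid transfer protein, by 1.79 ± 0.11.

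The largest falls held genes of several unrelated roles. YAE1, an adaptor for iron-sulfur cluster delivery to the ribosome recycling factor ABCE1, read 11.31 and 11.35 without COH29 and 9.38 and 9.56 with it, a fall of -1.86 ± 0.13 (limma adjusted p = 5.74e-05). Its second probe set, at a mean level of 5.11, changed by 0.05, so the fall rests on 1 of 2 probe sets. MKKS, a chaperonin-like protein of the primary cilium, read 8.76 and 8.94 without drug and 6.58 and 7.21 with it. E2F5, a repressor of the E2F family, fell from 8.03 and 7.95 to 5.94 and 6.67, and SENP7, a SUMO protease, from 7.63 and 7.84 to 5.80 and 6.38. In these 3 genes the COH29 arrays lay well below the controls but also 0.5 or more apart from each other. G2E3, a ubiquitin ligase, showed the same spread, with 6.93 and 7.62 on the COH29 arrays against 8.85 and 8.84.

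Other falls were in genes of cell surface and secreted proteins. IL7R, the interleukin-7 receptor chain, read 10.32 and 9.84 without COH29 and 8.35 and 8.37 with it, a fall of -1.72 ± 0.14. PECAM1, an adhesion molecule of endothelium and leukocytes, fell from 9.23 and 9.37 to 7.30 and 7.40, by -1.95 ± 0.10, and its second probe set, at a mean level of 4.14, changed by -0.51. TGFB2, a ligand of the TGF-beta family, fell by -1.60 ± 0.10 and GSDMC, a gasdermin, by -1.59 ± 0.12. RERG, a growth-inhibiting Ras-like protein, fell by -1.57 ± 0.09, with both groups tight. GJA5, a connexin, changed by -1.58 ± 0.23 and lost its call with no moderation of the variances (limma adjusted p = 0.0517). NHLRC2 fell by -1.58, C3orf33 by -1.77, C9orf152 by -1.59 and C18orf54 by -1.54.

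**Figure D3:**
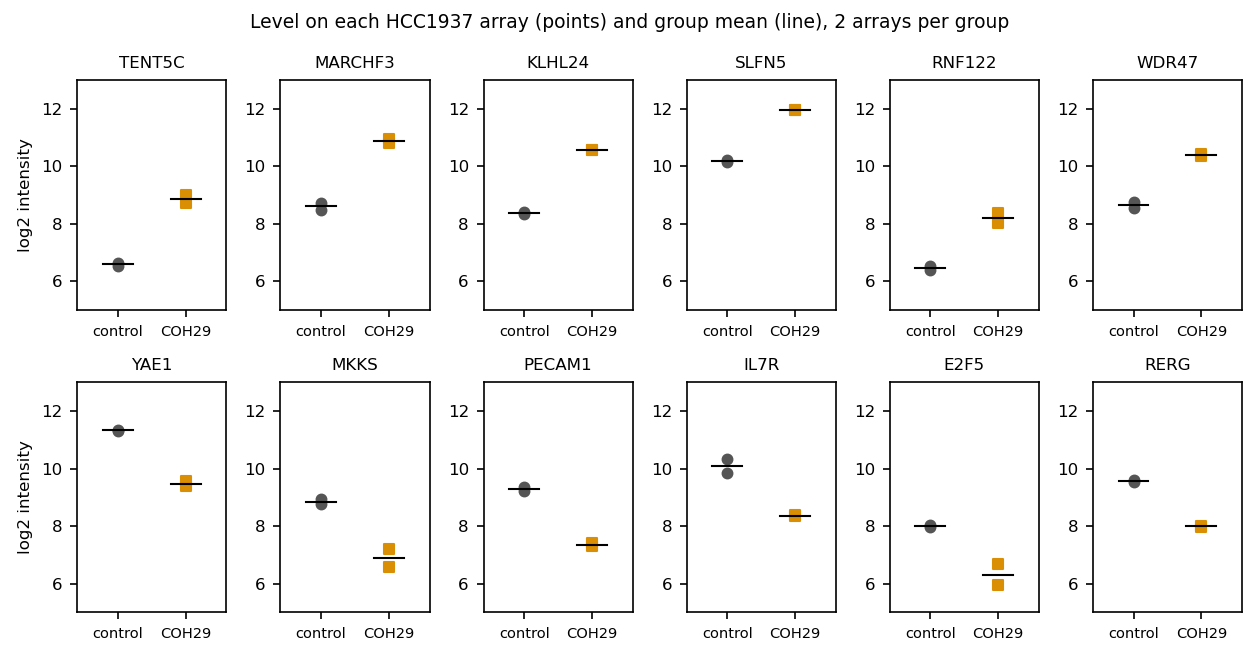
Points give the log2 intensity of 6 genes that rose (top) and 6 that fell (bottom) on each of the 2 control arrays (grey circles) and 2 COH29 arrays (orange squares) of HCC1937, and lines the group means. Groups are apart in all 12 genes, tightly in SLFN5 and RERG, while the COH29 arrays of MKKS read 6.58 and 7.21 and those of E2F5 5.94 and 6.67.

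Gene lists by role were read against the share of all genes called, 10.2% higher and 12.5% lower, and 18 of 59 lists had at least 5 members called in 1 direction at 2 times that share or more. Among all genes at the same levels as a list's members the shares were higher, 16.1% to 18.9% lower for the 9 lists described for falls and 10.8% to 15% higher for the 9 described for rises. Against those, 0 of the lists described for falls and 4 of those described for rises (elongation, F-box and Kelch-like, clock and quiescence) reached 2 times the share. Genes for making ribosomes gave the largest number of falls among them. Of 74 measured ribosome biogenesis and nucleolar factors, 27 fell (36.5%) and 2 rose, with a median change of -0.24, and 59 of the 74 had a negative change. Among all genes at the same levels 18.6% were called lower, so the list stood at 1.96 times that share. UTP18 and UTP20, parts of the complex that processes the small subunit's RNA, read 9.67 and 9.69, and 9.83 and 9.72, without COH29. With the drug they read 8.34 and 8.58, and 8.49 and 8.73, falls of -1.22 ± 0.11 and -1.17 ± 0.10. LTV1, an assembly factor of the small subunit, fell by -0.81 ± 0.09 and TCOF1, the nucleolar protein treacle, by -0.73 ± 0.08. For the finished ribosome's own proteins, of 67 cytosolic ribosomal genes 0 were called higher and 1 lower, at a median change of -0.01, and the 1 fall was lost without control array 2. The count of 27 was 15 without COH29 array 1 and 16 without either control array, and the 2 rises became 1 or 0 whichever HCC1937 array was left out.

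Of 59 enzymes that modify transfer RNA, 20 fell (33.9%) and 2 rose, at a median change of -0.19. DPH3, which serves diphthamide and transfer RNA modification, fell from 9.22 and 9.01 to 7.53 and 7.71, by -1.50 ± 0.13. TRMT61B, a mitochondrial methyltransferase, fell by -1.03 ± 0.09, PUS10, a pseudouridine synthase, by -1.03 ± 0.13, and ALKBH8, a wobble-base modifier, by -0.91 ± 0.14. The falls counted 12 without COH29 array 1 or control array 2, and the rises 1 without COH29 array 2 or either control array.

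Messenger RNA processing genes gave more falls than rises. Of 58 core spliceosome proteins, 16 fell (27.6%) and 6 rose, with SNRPD1, an Sm core protein, down by -0.72 ± 0.11 and DDX23, a helicase, by -0.66 ± 0.10, while the splicing factor SLU7 rose by 0.60 ± 0.09. SNRPA1 rose by 0.64 ± 0.12, with its call lost under 1 alternative. Of 48 genes of the exosome, deadenylation and nonsense-mediated decay, 13 fell (27.1%) and 5 rose. XRN1, the main cytoplasmic exonuclease, fell from 10.17 on both controls to 9.33 and 9.43, EXOSC10, a nuclear exosome nuclease, by -0.66 ± 0.08 and DCP1B, a decapping cofactor, by -0.98 ± 0.14. BTG1, an antiproliferative partner of deadenylases, went the other way, from 11.14 and 11.15 to 12.25 and 12.22. Of 25 hnRNP proteins 3 fell and 0 rose, and the falls numbered 7 with limma's trend and robust variances. Spliceosome and decay falls were fewer without COH29 array 1 or either control array, and spliceosome falls numbered 25 with trend and robust variances. Decay rises numbered 3 without COH29 array 1 and 2 without control array 2.

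In the transcription machinery, elongation genes gave more rises than falls and Mediator more falls than rises. Of 28 genes of elongation and pause control, 9 rose (32.1%) and 4 fell, and the falls numbered 7 with trend and robust variances. CTR9, a subunit of the PAF complex, rose from 9.32 and 9.23 to 9.92 and 10.07, by 0.72 ± 0.09, and MEPCE, a capping enzyme of the pause regulator 7SK, by 0.56 ± 0.10. ELL3 rose by 0.50 ± 0.11, with its call lost under 4 alternatives, and the kinase CDK13 fell by -0.49 ± 0.10, with its call lost under 1. Of 30 Mediator subunits, 8 fell (26.7%) and 4 rose. MED24 fell from 10.47 on both controls to 9.58 and 9.73, MED27 by -0.76 ± 0.09 and MED12, of the kinase module, by -0.72 ± 0.09, while MED20 rose by 0.69 ± 0.09. RNA polymerase II itself counted 2 of 12 subunits higher and 0 lower, and the 2 rises became 1 whichever HCC1937 array was left out. The rises in elongation genes numbered 5 without either control array, and their falls 1 or 2 without COH29 array 1, either control array or either control array of HCC1937BRCA1. Mediator falls numbered 5 without control array 1.

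Of 3 lists of chromatin regulators, 2 gave more falls than rises and the largest was nearly even. Of 58 histone lysine methyltransferases and demethylases, 9 rose (15.5%) and 10 fell (17.2%), at a median change of -0.04. Of 39 ATP-dependent remodelers, 11 fell (28.2%) and 1 rose, and 30 of the 39 had a negative change. SMARCE1 and ARID2, both SWI/SNF subunits, fell by -0.70 ± 0.09 and -0.68 ± 0.09, and CHD7 and HELLS, both helicase-type remodelers, by -0.63 ± 0.09 and -0.62 ± 0.11. Of 27 histone acetyltransferases and deacetylases, 7 fell (25.9%) and 2 rose. KAT2A fell from 10.63 and 10.71 to 9.88 on both COH29 arrays, KAT5 by -0.76 ± 0.10 and the deacetylase HDAC6 by -0.59 ± 0.09, whereas the deacetylase SIRT1 rose from 9.01 and 8.77 to 9.72 and 9.82. Among all genes at the same levels, 16.8% and 18.4% were called lower. The methylation list's rises numbered 3 without COH29 array 2 or control array 1 and 2 without control array 2, and its falls 6 without control array 2. Remodeler falls numbered 7 without COH29 array 1, and their single rise was lost whichever HCC1937 array was left out. The 2 rises among acetylation enzymes were 1 without COH29 array 1 or control array 1.

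**Figure D4:**
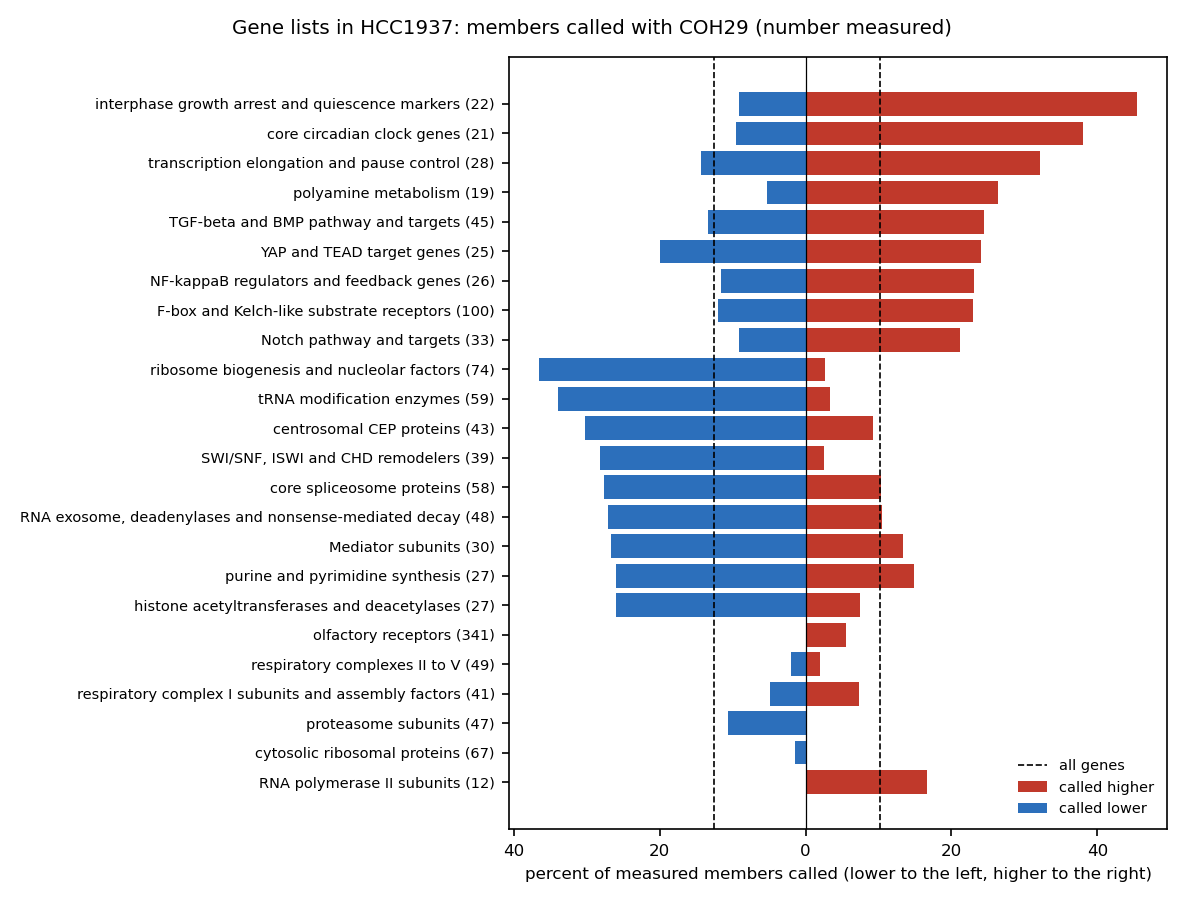
Bars give the percent of each list's measured members (their number in parentheses) called higher (red, to the right) and lower (blue, to the left) with COH29 in HCC1937, and dashed lines the share of all genes, 10.2% and 12.5%. Ribosome biogenesis reaches 36.5% lower and the quiescence list 45.5% higher, while cytosolic ribosomal proteins, shown among the 6 contrast lists at the bottom, stay at 0 higher and 1 lower of 67. The lists were drawn up with earlier results of these data known.

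Genes of nucleotide metabolism moved both ways. Of 27 genes of purine and pyrimidine synthesis, 7 fell (25.9%) and 4 rose (14.8%). CAD, which opens the pyrimidine pathway, read 9.37 and 9.41 without COH29 and 8.64 and 8.79 with it, a fall of -0.67 ± 0.09. DHODH, the mitochondrial enzyme of the same pathway, fell from 8.10 and 7.97 to 7.12 and 7.47, with its call lost under 1 alternative. UPP1, uridine phosphorylase, rose from 8.75 and 8.70 to 9.68 and 9.83, by 1.03 ± 0.09, and PNP, purine nucleoside phosphorylase, from 10.69 and 10.71 to 11.57 and 11.61, by 0.89 ± 0.08. Both are nucleoside-cleaving enzymes, and in both the groups were far apart. The other rises, named after their values were seen, were PPAT (0.51), the first enzyme of purine synthesis, and ADSS1 (0.39), an adenylosuccinate synthase. The falls numbered 4 without COH29 array 1 and 3 without control array 1, and the rises 2 without control array 2.

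Of 19 polyamine genes, 5 rose (26.3%) and 1 fell. The rises included 2 enzymes of polyamine breakdown: SMOX, spermine oxidase, rose from 8.83 and 8.80 to 9.89 and 9.99, and SAT1, the acetyltransferase, from 10.54 and 10.58 to 11.39 and 11.43. AZIN2, an antizyme inhibitor, rose by 0.64 ± 0.11 and MAT2A, which makes the methyl donor S-adenosylmethionine, by 0.56 ± 0.08. The single fall was lost whichever HCC1937 array was left out. In the respiratory chain, of 41 complex I genes 3 rose and 2 fell, and of 49 genes of complexes II to V 1 rose and 1 fell. With trend and robust variances, complex I had 6 falls, and complexes II to V had 2 rises and 4 falls. The complex I rises numbered 1 without control array 2, and its falls 0 without COH29 array 1 or control array 1 and 1 without control array 2. The 1 fall in complexes II to V became 0 without COH29 array 2 or either control array and 2 without either COH29 array of HCC1937BRCA1.

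Receptors that choose substrates for ubiquitin ligases gave more rises than falls, and the proteasome 0 rises. Of 100 F-box and Kelch-like receptors, 23 rose (23%) and 12 fell (12%, near the 12.5% of all genes). Beside KLHL24, FBXO32, the muscle-wasting factor atrogin-1, rose from 8.49 and 8.74 to 10.04 and 9.92, and KLHL28 by 1.27 ± 0.09. FBXO43, an inhibitor of the anaphase-promoting complex, fell from 6.81 and 7.04 to 5.63 and 5.75. Of 47 proteasome subunits 0 rose and 5 fell (10.6%), at a median change of -0.07, and 38 of the 47 had a negative change. The proteasome falls numbered 12 with trend and robust variances and 8 without the genes below the 30th percentile of level. The receptor rises numbered 14 and 15 without control array 1 and 2, and the falls 7 without COH29 array 1 or either control array. The 5 proteasome falls numbered 2 without COH29 array 1 or control array 2, 1 without control array 1 and 3 without either control array of HCC1937BRCA1.

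Of 43 centrosomal proteins of the CEP family and its partners, 13 fell (30.2%) and 4 rose. CEP41, a tubulin modification factor of the cilium, fell from 8.12 and 8.11 to 7.05 and 7.27, and CNTRL, centriolin, by -0.92 ± 0.13. CEP57L1 fell by -0.83 ± 0.19, with its call lost under 3 alternatives. CEP68, a linker between centrosomes, rose, from 7.48 and 7.54 to 8.64 and 8.85, by 1.24 ± 0.09. The falls numbered 8 without control array 2, and the rises 2, 1 and 1 without COH29 array 1, COH29 array 2 and control array 1.

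Signalling lists held rises and falls together. In the Notch pathway, 7 of 33 rose (21.2%) and 3 fell. The ligand DLL4 rose from 6.74 and 6.49 to 8.11 and 8.24, by 1.56 ± 0.10 (limma adjusted p = 3.59e-05), and the target genes HEY2 and NRARP by 1.21 ± 0.14 and 1.02 ± 0.13. DTX4, a ubiquitin ligase of the pathway, fell from 10.26 on both controls to 9.35 and 9.45. In the TGF-beta and BMP pathway, 11 of 45 rose (24.4%) and 6 fell. BAMBI, a decoy receptor, rose from 11.16 and 11.15 to 12.11 and 12.17, while the ligand TGFB2, the corepressor TGIF2 (-1.03 ± 0.09) and the activin antagonist FST (-1.02 ± 0.14) fell. Without either control array the rises numbered 7.

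Of 25 YAP and TEAD target genes 6 rose (24%) and 5 fell (20%), so the list had no single direction, and its median change of -0.01 crossed 0 over the alternatives. CCN2, a matrix-associated growth factor, rose by 0.84 ± 0.11 and GADD45A by 1.03 ± 0.11, whereas ANKRD1, a cardiac ankyrin-repeat gene, fell from 9.25 and 8.57 to 7.48 and 7.92, with its call lost under 3 alternatives. The falls of this list numbered 2 without COH29 array 1 or control array 1 and 3 without control array 2. Of 26 NF-kappaB regulators 6 rose (23.1%) and 3 fell, but the rises numbered 1 or 2 and the falls 0 or 1 whichever HCC1937 array was left out. SOD2, mitochondrial superoxide dismutase, rose by 0.59 ± 0.08. NFKBIE changed by 0.40, BCL3 by -0.46 and TRAF3 by -0.43, calls each lost under 4 or 5 alternatives.

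Of 21 core clock genes, 8 rose (38.1%) and 2 fell. RORA, an activator within the clock, read 5.54 and 5.59 without COH29 and 6.63 and 7.05 with it. The repressors NFIL3 and BHLHE40 rose by 0.95 ± 0.10 and 0.86 ± 0.09, and PER3 fell from 9.47 and 9.49 to 8.42 and 8.52, by -1.01 ± 0.08. Without COH29 array 2 or either control array the rises numbered 5. The groups were apart in all 4 of these genes.

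Markers of growth arrest and quiescence gave the largest share of rises, 10 of 22 (45.5%), with 2 falls and a median change of 0.30. Like the other lists, this one was drawn up with earlier results of these data known, so its share is a description only. TXNIP, a glucose-responsive arrestin that restrains glucose uptake, rose from 10.80 and 10.99 to 12.19 and 12.33, by 1.36 ± 0.10. Its relative ARRDC3 rose from 10.39 and 10.29 to 11.69 and 11.65, and BTG1, given above, is also of this list. GAS2L3, a mitotic cytoskeletal linker, fell by -0.89 ± 0.10. Of the 2 falls, 1 was left without control array 2.

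The label of a breast epithelial line was checked against cell type markers. All 3 general epithelial markers lay above the median gene, EPCAM at a control mean of 12.09 and CDH1 at 12.05, as did 5 of 5 basal markers measured (KRT5 at 10.98, CDH3 at 12.42) and 6 of 8 luminal ones (KRT8 at 13.14). Markers of other cell types were mixed. Of 5 leukocyte markers 2 lay above the median gene by mean over the 8 arrays, CD68 at a control mean of 10.58 and CD14 at 10.61, while PTPRC stood at 4.18, LYZ at 4.43 and CD3E at 5.18. Of 7 fibroblast markers 1 did, COL1A1 at 7.81, and the lowest were LUM at 3.22 and DCN at 3.82. Of 4 endothelial markers 0 did by that mean. Their control means were 9.30 for PECAM1, 8.75 for CDH5, 5.73 for VWF and 5.41 for KDR. Against the median intensities of the 2 HCC1937 control arrays, 7.93 and 7.92, PECAM1 and CDH5 lay above and COL1A1 below. Of the markers of other cell types, 3 fell with COH29: PECAM1 as above, CDH5 and CD14. LEP, 1 of 3 adipocyte markers, all below the median gene, was called higher. It changed by 0.37 from a control mean of 6.32 (limma adjusted p = 0.0442). CDH5, a junctional cadherin, fell from 8.72 and 8.78 to 7.39 and 7.56, and CD14 from 10.47 and 10.74 to 9.38 and 9.57. PTPRC, LYZ, VWF and KDR changed by 0.03, 0.21, 0.25 and 0.13, none past the test. Of the epithelial markers, the luminal factor FOXA1 fell by -0.73 and XBP1 rose by 0.67. The basal marker EGFR fell by -0.27 and the general marker CDH1 rose by 0.26, both calls near the threshold.

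Most of the large changes were also present in the line with exogenous BRCA1. Of the 172 genes at least 2-fold higher in HCC1937, 172 had a rise of any size in HCC1937BRCA1 and 139 one of at least 2-fold; of the 179 at least 2-fold lower, 172 and 134 did so for falls. These comparisons share no arrays. Across 18417 genes the effects in both lines correlated with Pearson's r of 0.815 and Spearman's rho of 0.735, a description, since genes are not independent. The test of the difference itself called 176 of all genes (0.956%). It called 46 of the 351 genes with at least 2-fold changes in HCC1937, with 19 changing more in HCC1937 and 27 more in HCC1937BRCA1. The 351 were chosen on HCC1937 arrays that also enter the difference. Genes with changes of that size in HCC1937BRCA1 alone are not in this split. The count of 176 was between 41 and 67 when each of the 8 arrays was left out in turn.

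Of the 19 genes that changed more in HCC1937, 13 fell and 6 rose, and those named here, NDRG1, TXNIP, SPIC and DIO2 apart, were chosen after their values were seen. GYG2, glycogenin of the liver type, read 9.04 and 9.27 without COH29 and 7.72 and 7.71 with it in HCC1937, but 6.29 and 6.35 against 6.21 and 6.44 in HCC1937BRCA1. CACNG4, a regulatory subunit of ion channels, fell in HCC1937 from 9.18 and 9.10 to 8.06 and 7.99 and read 6.98 and 7.01 against 7.03 and 7.17 in the other line. B3GALT5, a galactosyltransferase, fell by -1.39 in HCC1937 and changed by 0.12 in HCC1937BRCA1, and its antisense partner B3GALT5-AS1 by -1.54 and 0.42, values that overlapping transcripts may share. All 13 falls had a higher control level in HCC1937 than in HCC1937BRCA1, and in 11 the other line's control level was at or below the HCC1937 level with COH29. The HCC1937 control arrays enter both that level and the fall, so these are not independent measures. Of the 19, 5 were called in every one of the 8 fits that left out 1 array, namely B3GALT5-AS1, FOXI1, GYG2, B3GALT5 and CACNG4, and 7 were called in none of those fits.

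**Figure D5:**
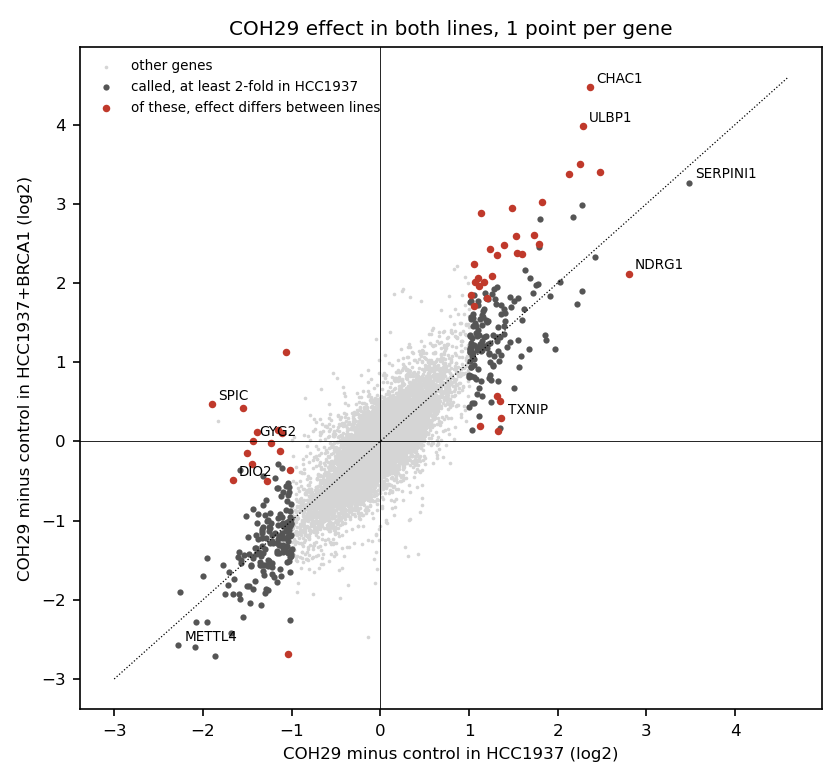
Each point is a gene placed by its COH29 minus control difference on the log2 scale in HCC1937 (horizontal) and in HCC1937BRCA1, written HCC1937+BRCA1 on the axis (vertical); dark points are called and at least 2-fold in HCC1937, red ones also differ between lines by the test, and the dotted line marks equal effects. CHAC1 and ULBP1 lie above the line, and NDRG1 and TXNIP below it, while GYG2 lies near 0 on the vertical axis.

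A second probe set was available for 769 genes. Of 188 of these that were called, 163 had the same sign on the second probe set, and of 12 called at 2-fold or more, 11 did, YAE1 being the exception. Changes on first and second probe sets correlated with r of 0.677 across these genes, which are not independent. The second probe sets had a median level of 7.56 against 8.69.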

How the data were processed

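RNA was measured on 8 arrays in 4 groups of 2. The authors deposited log2 intensities of 33297 probe sets, and the submitters' processing notes name RMA and Partek, with no version. The label protocols give TRIzol extraction and one-cycle labelling. No aligner or genome build applies. Detection values were not used. Precision is limited by having 2 arrays per group.

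Of the probe sets, 19460 had 1 gene in the platform annotation, 1754 several and 12083 none, and 19429 matched RefSeq's gene table (GRCh38.p14). Each of 18417 genes kept its probe set of highest mean level (8 arrays). Group means were fitted to all 8 arrays with limma 3.58.1 (R 4.3.3; 4 residual degrees of freedom). Calls have a Benjamini-Hochberg adjusted p under 0.05. The fit was tested on simulated data. Tables used Python 3.11.15 and pandas 2.3.3.

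Named genes are 5 fixed ones, the 25 largest rises and falls, and up to 4 called members per described list; some were left out for length. Members and the 59 lists were chosen with earlier results of these data known, and lists share members such as BTG1 and TGFB2. Same-numbered control and COH29 arrays of HCC1937 had residuals correlated at 0.04, and other group pairs at -0.20 to 0.26, so numbers were not taken as pairs. Alternatives are in the closing section.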

Additional observations from a re-analysis of the deposited data

Results flagged for a closer look

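The effect of COH29 differed between the lines, by the test of the difference, in 13 of the named genes (limma adjusted p under 0.05, 2 arrays per group). It was larger in HCC1937 for NDRG1, a hypoxia-responsive gene, by 0.68 on the log2 scale, and for TXNIP by 1.08 (1.36 against 0.29). For SPIC, an ETS-family factor, the difference was -2.37, since it fell by -1.89 in HCC1937 and changed by 0.47 in HCC1937BRCA1, and its fall in HCC1937 lost its call with no moderation of the variances. For DIO2, which activates thyroid hormone, it was -1.18, with a fall of -1.67 against -0.49.

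The effect was smaller in HCC1937, though in the same direction, for CHAC1 by -2.11, ULBP1 by -1.70, CCN2 by -1.35, STC2 by -1.25, ASNS by -1.25, ANGPTL4 by -1.20, DDIT3 by -0.93, DNAJB9 by -0.87 and SLC7A11 by -0.71. These differences kept their calls to unequal degrees when 1 array was left out, which also leaves fewer residual degrees of freedom. Over the 8 fits that left out 1 array each, the difference was called in all 8 for CHAC1, STC2, ASNS, ANGPTL4 and CCN2, in 3 for TXNIP, 2 for ULBP1, 1 for DIO2, DNAJB9 and SPIC, and 0 for NDRG1, DDIT3 and SLC7A11. CHAC1 rose from 8.76 and 8.65 to 11.04 and 11.10 in HCC1937, and from 7.89 and 7.85 to 12.33 and 12.37 in HCC1937BRCA1. CTH, an enzyme of cysteine synthesis named after its values were seen, rose by 1.54 against 2.38, and its control level differed, at 10.23 and 10.03 against 7.06 and 6.97.

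Some calls were also made in probe sets outside the gene comparison. Of 12083 probe sets with no gene in the annotation, 175 were called higher in treated HCC1937 and 181 lower, 25 and 27 of them at least 2-fold. Of 1754 with several genes, 87 were called higher and 75 lower. In both sets and both directions these were smaller shares than the 10.2% higher and 12.5% lower among the genes tested. Their median levels were 5.99 with no gene and 7.71 with several.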

How the results depend on the processing

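Against 1872 genes higher and 2307 lower with COH29 in HCC1937, leaving out each array gave 1001 to 1792 higher and 1280 to 2220 lower, and 1524 were lower with no moderation of the variances. With the replicate number as a replicate block, 1672 were higher and 2107 lower. The 172 and 179 genes at least 2-fold higher or lower became 25 and 10 when a change beyond 2-fold was itself tested (limma's treat); over the arrays left out they were 147 to 196 and 140 to 239. The 176 genes whose effect differed between the lines became 351 without the genes below the 30th percentile of level, 566 with trend and robust variances, 3 with no moderation, 106 with the replicate block and 41 to 67 without 1 array; the cause was not tested. No named gene's called change turned its sign under the alternatives run, but which direction held more calls did turn: shifting arrays to one median gave 2262 higher and 2079 lower (52.1% higher, against 44.8%), and leaving out COH29 array 1 gave 1333 and 1309.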
